A study of Mus musculus with 12 samples.

Results

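The genes described here are 40 regulators of chromatin whose human counterparts are linked to neurodevelopmental disorders. They were taken by gene symbol from a fixed list whose rule uses no measured value, although earlier results of these data were known when it was made, and all 40 were found among the 55336 feature rows of the count matrices. They cover ATP-dependent remodelers, writers, erasers and readers of histone marks, a DNA methyltransferase and a related protein, Polycomb-associated proteins, subunits of the Mediator kinase module, zinc finger proteins that bind heterochromatin protein HP1, and transcription factors and co-regulators.

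Chromatin regulators set which parts of the genome are open to transcription. Remodelers slide or evict nucleosomes with energy from ATP, histone methyltransferases and acetyltransferases add marks that other proteins read, and demethylases and deacetylases remove them. Loss of a single copy of many of these genes causes intellectual disability or autism in people, so that they are studied as dosage-sensitive genes of the developing cortex. MYT1L, the neuronal zinc finger factor mutated in this series, belongs to the same group of disorder genes and is known to recruit co-repressor complexes to chromatin.

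Single-nucleus RNA sequencing had been performed on the cortex of 12 mice at postnatal day 21 (P21). There were 6 WT and 6 Het animals, with 3 males and 3 females of each genotype. Het animals carried 1 copy of the frameshift allele MYT1L S710fsX (line C57BL/6-Myt1l em1Jdd/J, bred with C57BL/6 J mice), and WT animals lacked it. All animals, WT and Het alike, had received AAV9 particles for the Calling Cards method by injection into the ventricles as newborn pups, which carried a transposase and a tdTomato reporter. The mutation is present in every cell of the animal from conception, and 1 cortex was 1 sample. A frameshift need not lower the level of its own transcript, so Myt1l RNA does not check the genotype. In excitatory neurons Myt1l was at 890 to 1072 CPM (the count of a gene scaled to 1000000 counts of the same animal and class) in WT and at 1025 to 1179 in Het. The edgeR fold change of Myt1l there was 0.15 ± 0.05 (log2, SE; adjusted p = 0.423), while an exact two-sided permutation test of the CPM alone, not adjusted for other genes, gave p = 0.01732.

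The matrices held 78743 barcodes, none shared between animals, with 23429386 to 59958572 counts per animal. Total counts did not differ between genotypes by an exact two-sided permutation test (p = 0.474, where 0.002165 is the smallest p possible). After filtering and removal of likely doublets 33219 nuclei remained, 14407 from WT and 18812 from Het. They were grouped into 21135 excitatory, 8650 inhibitory and 3434 non-neuronal nuclei, and clusters were named from marker genes, so a name such as L6 CT-like means a cluster with raised markers of that type. The members were kept out of the genes used for clustering. In all, 11983 nuclei lay in clusters without a name. They entered only the sums of excitatory or inhibitory nuclei, and those that were non-neuronal entered no sum. The tissue is labelled cortex, but 827 excitatory nuclei were dentate gyrus (DG) granule-like, and among inhibitory nuclei 651 were striatal D1-like and 529 striatal D2-like. Unnamed inhibitory clusters of 160 and 136 nuclei also had raised striatal D1 and D2 markers, so the shares that follow can be too low. Striatal-like nuclei made up 6.76% to 15.2% (median 10.2%) of inhibitory nuclei in WT and 12.7% to 18.9% (median 16.7%) in Het. This difference passed an exact two-sided permutation test (p = 0.01732). For this reason, the main comparisons of inhibitory neurons are also given for the sum of 5 named cortical inhibitory types alone (Pvalb-, Sst-, Vip-, Lamp5- and Sncg-like). Likewise, 6 named cortical excitatory types were summed (L2/3 IT-, L4/5 IT-, L5 NP-, L6 IT-, L6 CT- and Car3-like). Fewer nuclei of a kind and less RNA per nucleus cannot be told apart within such sums. The paper, too, reports a larger proportion of striatal inhibitory neurons in Het at P21. By staining it found more neurons positive for both DARPP32, which marks these neurons, and NeuN in the deep cortex of Het mice. The origin of the striatal-like nuclei was not tested here.

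The 40 genes lie on 19 chromosomes. The closest pair was Chd3 and Kdm6b, 29.1 kb apart on chromosome 11. In the mouse mm10 annotation the members were long genes, with a median span of 102 kb against 28.5 kb for genes tested in excitatory neurons. Their median exonic length was 14.03 kb against 4.43 kb. Kdm6b had the shortest span (15.2 kb; chr11:69398508-69413675, minus strand) and Auts2 the longest (1106 kb; chr5:131437333-132543344, minus strand). Nuclear RNA is rich in unspliced transcripts, so a long intron adds reads to a gene, and levels are therefore compared below for 1 gene across classes and never between genes.

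Together the members took up about 1 in 100 counts in each of the 19 named types. Their summed share was 1.09% ± 0.024 of all counts (SD, n = 12) in excitatory neurons, 1.07% in WT and 1.10% in Het. It was 1.27% ± 0.10 in inhibitory neurons and 1.19% ± 0.025 in the named cortical inhibitory types. Among named types the lowest share was that of L5 NP-like nuclei (0.960% ± 0.042, n = 12) and the highest that of microglia-like nuclei (1.41% ± 0.10, n = 7).

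Most members with enough counts in every type varied little between kinds of neurons. Over 14 neuronal types, 34 members had at least 50 counts in each type, and the ratio of the highest to the lowest mean level of a member had a median of 1.57. Over all 2119 genes with that many counts the median ratio was 2.19. A ratio under 2 was found for 25 of the 34 members (73.5%) and for 44.3% of the genes. Over the 11 cortical types alone, the members' median ratio was 1.45 against 1.97 over 2190 genes. The ratio also grows with counting error, which is larger for genes with fewer counts, and no test was made of it. Other autosomal genes were not kept out of the clustering, as the members were, which can raise their ratios. Adnp, Asxl3, Chd7, Kdm6b, Kmt2d and Setd1a fell short of 50 counts in some type and are left out here. Over the 14 types the 3 steadiest members were genes of SET domain proteins, and over the cortical types alone the steadiest was Pogz, which encodes a zinc finger protein that binds HP1 (ratio 1.2). Kmt2e, which encodes a PHD and SET domain protein, ranged from 316 ± 23 CPM (SD, n = 12) in L2/3 IT-like nuclei to 405 ± 50 in L5 NP-like nuclei, a ratio of 1.28 over the 14 types. Setd2, which trimethylates histone H3 lysine 36, had a ratio of 1.32 and Kmt2a, a histone H3 lysine 4 methyltransferase, one of 1.33. The acetyltransferase genes Ep300 and Crebbp followed closely at 1.34 each, and other SET domain genes lay higher, such as Kmt2c (1.58) and Nsd1 (1.62).

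**Figure D1:**
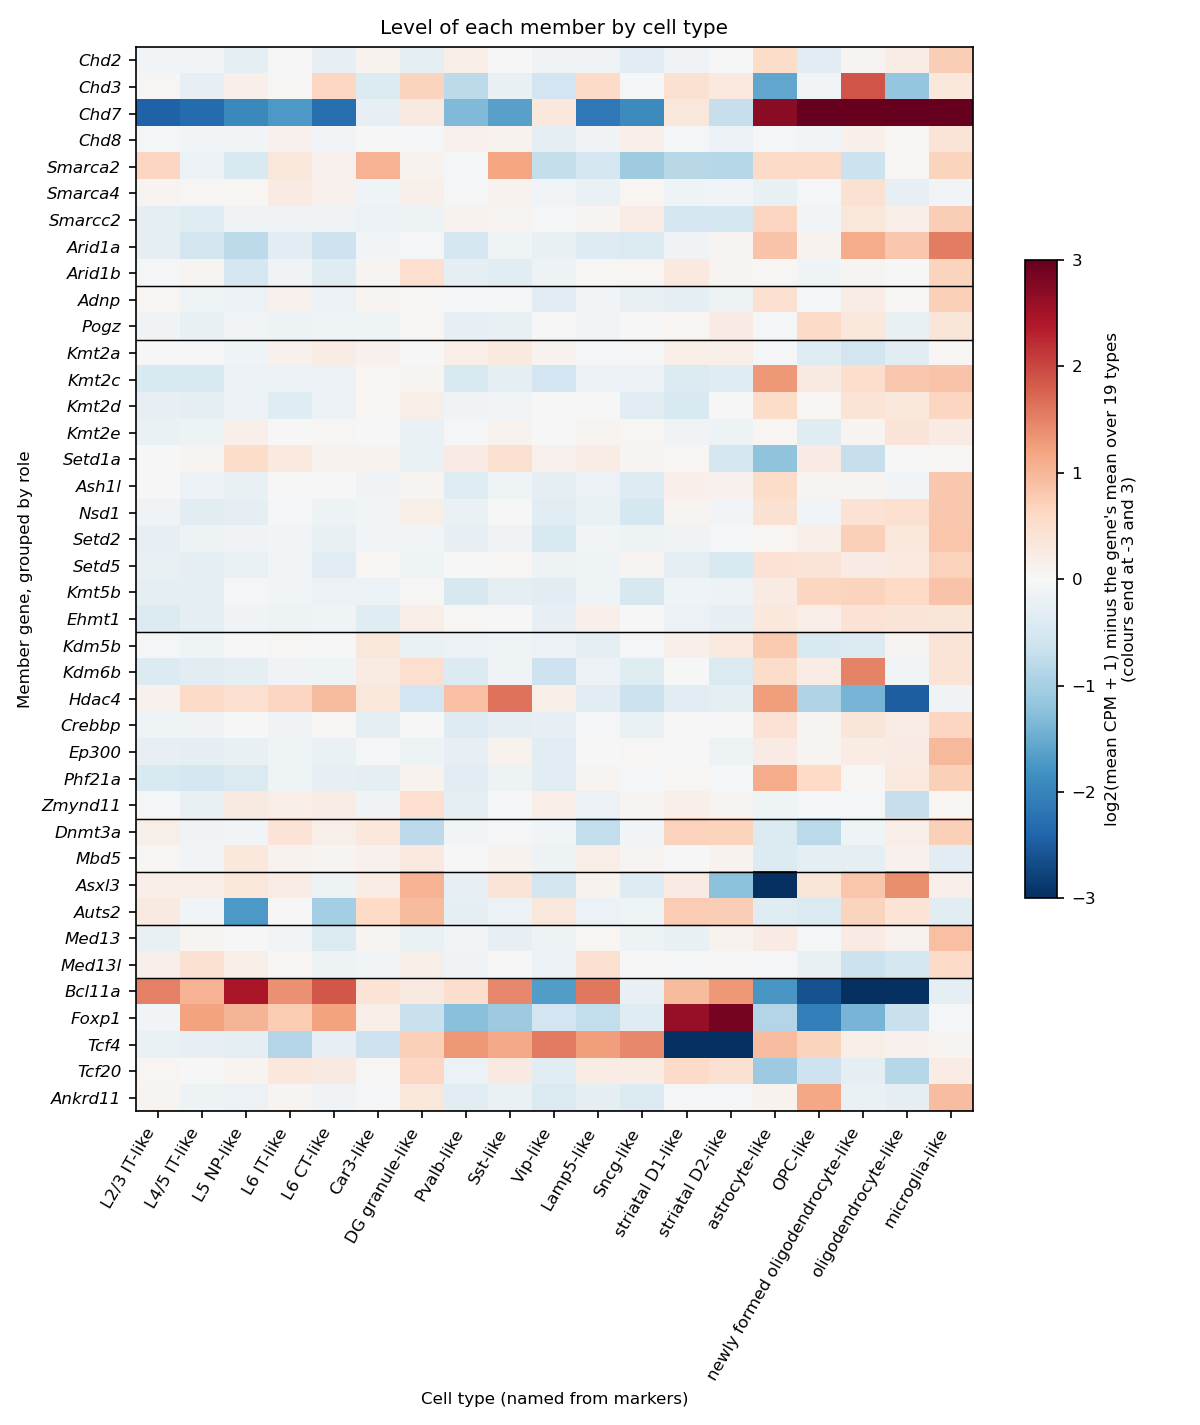
Level of each of the 40 members in each of the 19 named types. Rows are members grouped by role, columns are types, and the color is log2(mean CPM + 1) minus the member's own mean of that value over the 19 types, with colors ending at -3 and 3. Most rows are nearly even across neuronal types, while Foxp1, Bcl11a, Tcf4, Auts2, Hdac4 and Smarca2 have ratios over 4 between their highest and lowest neuronal type and Chd7 stands high in non-neuronal types.

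A ratio over 4 was found for 6 members, namely 3 transcription factors, a Polycomb-associated gene, a deacetylase and a remodeler ATPase. Tcf4, a basic helix-loop-helix factor, had the widest range of neuronal levels, from 3591 ± 159 CPM (SD, n = 12) in Vip-like nuclei to 93.5 ± 52 in striatal D2-like nuclei, a ratio of 38.4. Every cortical inhibitory type was above every cortical excitatory type in mean Tcf4 level, with 2974 ± 82 CPM in the named cortical inhibitory types summed and 968 ± 32 in the excitatory ones. Within cortical excitatory types its lowest mean was 656 ± 44 CPM in L6 IT-like nuclei.

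Bcl11a, a zinc finger factor that associates with BAF remodeling complexes, ranged from 604 ± 96 CPM in L5 NP-like nuclei to 33.9 ± 16 in Vip-like nuclei (SD, n = 12), a ratio of 17.8. Among the cortical inhibitory types it stood at 336 ± 47 CPM in Lamp5-like and 303 ± 43 in Sst-like nuclei, but at 160 ± 14 in Pvalb-like and 95.0 ± 63 in Sncg-like nuclei. Of these levels, those in Lamp5- and Sst-like nuclei lay within 1 SD of each other.

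Foxp1, a forkhead repressor known for its role in striatal projection neurons and in cortical layers, was highest in the striatal-like nuclei. Its level was 2518 ± 340 CPM in striatal D2-like and 2093 ± 258 in striatal D1-like nuclei, and 144 ± 26 in Pvalb-like nuclei, where it was lowest. In the cortical excitatory types it stood at 795 ± 47 CPM in L6 CT-like, 793 ± 71 in L4/5 IT-like, 698 ± 56 in L5 NP-like and 322 ± 31 in L2/3 IT-like nuclei (SD, n = 12). Its levels in L6 CT- and L4/5 IT-like nuclei did not differ beyond their spread.

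Auts2, which encodes a subunit of a variant Polycomb complex, was highest in DG granule-like nuclei (3751 ± 362 CPM) and lowest in L5 NP-like nuclei (595 ± 232). Hdac4, a class IIa deacetylase that moves between nucleus and cytoplasm, was at 345 ± 52 CPM in Sst-like and 71.2 ± 31 in Sncg-like nuclei. Smarca2, an ATPase of the BAF complex, had the same extremes, 451 ± 25 CPM in Sst-like and 93.6 ± 37 in Sncg-like nuclei (SD, n = 12). The other BAF ATPase, Smarca4, was at 107 ± 22 and 104 ± 30 CPM in these types, so that the pair of paralogs did not share a pattern of levels.

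Differences between classes were then tested on sums per animal with the animal as a block (edgeR quasi-likelihood test, TMM scaling, Benjamini-Hochberg adjustment over all genes tested). A member was called where adjusted p was under 0.05 and the fold change was over 1 on the log2 scale. TMM scales each sum so that most genes are level between the sums compared, which is a strong assumption between neurons and glia. Scaling by total counts moved the median log2 fold change over all genes by 0.66 in the contrast of astrocyte-like nuclei and by 0.78 in that of microglia-like nuclei with excitatory neurons. It moved it by 0.12 for oligodendrocyte-like and by 0.16 for OPC-like nuclei (oligodendrocyte precursors). No member called with TMM had the other sign with total counts. The percentages of all genes called in these contrasts hold for TMM, and none is given beside counts of members called with total counts.

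Between inhibitory and excitatory neurons 1 of 40 members was called higher and none lower, where 6.43% and 5.26% of 12344 genes were called. It was Chd7, a remodeler of the CHD family mutated in CHARGE syndrome, at 30.1 ± 8.1 against 10.2 ± 1.8 CPM (SD, n = 12) and a log2 fold change of 1.52 ± 0.12 (SE). Its difference shrank to 0.89 between the named cortical types (15.7 against 7.70 CPM) and was no longer called. Between the named cortical inhibitory and excitatory types 1 member was called in each direction, beside 7.58% of 9763 genes higher and 9% lower. Tcf4 was higher in the inhibitory types by 1.55 ± 0.03 and Foxp1 lower, with a log2 fold change of -1.92 ± 0.04. With the striatal-like and unnamed nuclei included, Foxp1 was at 483 CPM in inhibitory and 545 in excitatory neurons.

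Within excitatory neurons, L6 CT-like nuclei, which project to the thalamus, were set against L2/3 IT-like nuclei of the upper layers. Of 39 members tested 1 was higher (background 5.01% of 7470 genes) and 1 lower (background 7.27%). Foxp1 was higher in L6 CT-like nuclei by 1.24 ± 0.04 and Auts2 lower, at -1.34 ± 0.04 (log2, SE, n = 12). A further 11 members with a positive and 10 with a negative fold change had adjusted p under 0.05 (edgeR) but were below the fold set for a call. Among the former Hdac4 (0.82 ± 0.06) and Chd3 (0.50 ± 0.07) had the largest values, and among the latter Smarca2 (-0.60 ± 0.06) and Arid1a (-0.40 ± 0.07).

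Among members higher in glia than in excitatory neurons, Chd7 had the largest fold changes. Its level was 449 ± 74 CPM in oligodendrocyte-like (SD, n = 12), 516 ± 130 in newly formed oligodendrocyte-like (n = 12), 484 ± 68 in OPC-like (n = 10), 504 ± 98 in microglia-like (n = 7) and 238 ± 108 in astrocyte-like nuclei (n = 8). In excitatory neurons its highest level in any animal was 13.7 CPM, and the lowest in any animal with oligodendrocyte-like nuclei was 330. The classes thus did not overlap for Chd7, which was not counted over all genes. Its log2 fold changes over excitatory neurons were 5.30 ± 0.09 in oligodendrocyte-like, 5.32 ± 0.13 in OPC-like, 4.79 ± 0.20 in microglia-like and 3.73 ± 0.28 in astrocyte-like nuclei. The level in astrocyte-like nuclei rests on 69 counts. The microglia-like nuclei also carried oligodendrocyte markers. All 7 of these had counts there, with a summed level of 1992 to 6179 CPM in the 7 animals, beside 4654 to 6481 for the 8 microglia markers in the same nuclei and 20790 to 24750 for the oligodendrocyte markers in oligodendrocyte-like nuclei. Their part in the values of Chd7 and the other members in microglia-like nuclei was not tested. Levels along the oligodendrocyte lineage lay within 1 SD of each other. How much of the low level in neurons is free RNA from glia was not measured.

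In oligodendrocyte-like nuclei 2 members were called higher and 5 lower than in excitatory neurons, beside 17.3% and 29.2% of 10188 genes. The other member called higher was Arid1a, the BAF subunit, at 198 ± 27 against 89.1 ± 7.6 CPM (1.04 ± 0.08). This call lies just over the fold set, and the value was between 0.67 and 1.17 under other settings. Its paralog Arid1b was level between these classes (-0.12 ± 0.07, adjusted p = 0.09995). The members called lower were Bcl11a (-5.87 ± 0.17), Hdac4 (-3.11 ± 0.15), Chd3 (-1.55 ± 0.14), Foxp1 and Tcf20. Asxl3, which belongs to a family of Polycomb-associated scaffold proteins, was at 211 ± 42 CPM in oligodendrocyte-like and 97.1 ± 4.1 in excitatory nuclei, and it was called only with scaling by total counts.

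Neuronal transcripts were also counted in the sums of the glial classes. Free RNA from neurons and a low expression of the class itself cannot be told apart in these sums. A panel of 6 neuronal transcripts stood at 1.60% of its level in excitatory neurons in oligodendrocyte-like nuclei, 2.31% in newly formed oligodendrocyte-like, 6.15% in OPC-like, 2.18% in astrocyte-like and 7.25% in microglia-like nuclei. Bcl11a stood at 1.60%, 1.84% and 5.34% of its excitatory level in the first 3 of these, at or below the summed panel, so that these reads cannot be told apart from background. Single genes of the panel ranged more widely, from 1.34% to 11.2% in oligodendrocyte-like, 1.88% to 23.3% in OPC-like and 6.30% to 37.3% in microglia-like nuclei. Hdac4 at 12.1% in oligodendrocyte-like nuclei lay just above that range, and Foxp1 at 14.9% in OPC-like nuclei lay within it.

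In OPC-like nuclei 1 member was called higher than in excitatory neurons and 5 lower, beside 11.5% and 21.4% of 9759 genes. Bcl11a (-4.46 ± 0.21), Foxp1 (-2.89 ± 0.13) and Hdac4 (-1.64 ± 0.17) had the largest negative fold changes. Tcf20 and Dnmt3a followed, and neither was called with total counts. Set against oligodendrocyte-like nuclei, 1 of 34 members tested was higher in OPC-like nuclei (background 21.9% of 3287 genes) and 1 lower (background 21.3%). Ankrd11, a cofactor that binds histone deacetylases and is mutated in KBG syndrome, was at 705 ± 121 CPM (n = 10) in OPC-like and 260 ± 39 (n = 12) in oligodendrocyte-like nuclei, a log2 fold change of 1.61 ± 0.10. Foxp1 was at 81.1 ± 20 and 216 ± 66 CPM (-1.28 ± 0.17).

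Newly formed oligodendrocyte-like nuclei entered no contrast. There Chd3, the ATPase of a NuRD complex, was at 294 ± 111 CPM, with 35.0 ± 16 in oligodendrocyte-like (SD, n = 12) and 74.5 ± 48 in OPC-like nuclei (n = 10). This gene was picked out after its values were seen, and the difference was not tested.

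In microglia-like nuclei 2 members were called higher and 6 lower, beside 12.4% and 28.3% of 10635 genes. With total counts the split was 6 higher and 1 lower, with Chd7, Arid1a and Bcl11a called under both scalings. Arid1a was at 331 ± 90 CPM (n = 7), a log2 fold change of 1.12 ± 0.18, while Arid1b was at -0.07 ± 0.17 (1.91 and 0.72 with total counts). Bcl11a (-2.56 ± 0.23) was lower, at 27.8% of its excitatory level, which is above the summed neuronal panel but within the range of its single genes. These values, too, come from nuclei with the oligodendrocyte markers described above. Foxp1 (-1.52 ± 0.19) and Hdac4 (-1.46 ± 0.24) were called lower with TMM, but their fold changes with total counts, -0.73 and -0.67, fell short.

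In astrocyte-like nuclei, of which there were 154 from 8 animals, 1 member was called higher and 9 lower, beside 9.1% and 31.4% of 9350 genes. With total counts 5 were higher and 5 lower. Asxl3 (-4.01 ± 0.54), Bcl11a (-3.92 ± 0.32) and Chd3 (-2.50 ± 0.40) had the largest negative fold changes and were called under both scalings, as were Foxp1 and Tcf20. Asxl3 had only 3 counts in the sums of these 8 animals, or 9.52% of its excitatory level. The exact 95% Poisson interval was 1.96% to 27.8% and covers counting error only. Leaving out 1 animal moved its log2 fold change to between -5.39 and -3.76. Smarca4 was at -1.29 ± 0.31 with TMM and Smarca2 at -0.08 ± 0.20 (0.58 with total counts), but the call of Smarca4 was lost with total counts.

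The members' medians depended on the scaling. With TMM their median log2 fold change over excitatory neurons was -0.04 in oligodendrocyte-like nuclei (all genes -0.13), -0.15 in OPC-like (all genes -0.22), -0.21 in microglia-like (all genes -0.43) and -0.30 in astrocyte-like nuclei (all genes -0.66). With total counts each of these medians was positive, at 0.08 (all genes -0.02), 0.0065 (all genes -0.06), 0.57 (all genes 0.35) and 0.37 (all genes 0.00079). Under both scalings the members' median was above that of all genes in these 4 contrasts, by 0.07 to 0.37. Between inhibitory and excitatory neurons it was -0.01 with TMM (all genes 0.02) and 0.0017 with total counts (all genes 0.03), and between the named cortical types it was -0.08 with TMM (all genes 0.0078). In each contrast with excitatory neurons, the percentage of members called with TMM was below that of all genes called, in either direction. Other autosomal genes were not kept out of the clustering, and a gene could pass the count filter through a single class. Both can move the medians and percentages over all genes, so the members' place beside them carries no test.

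**Figure D2:**
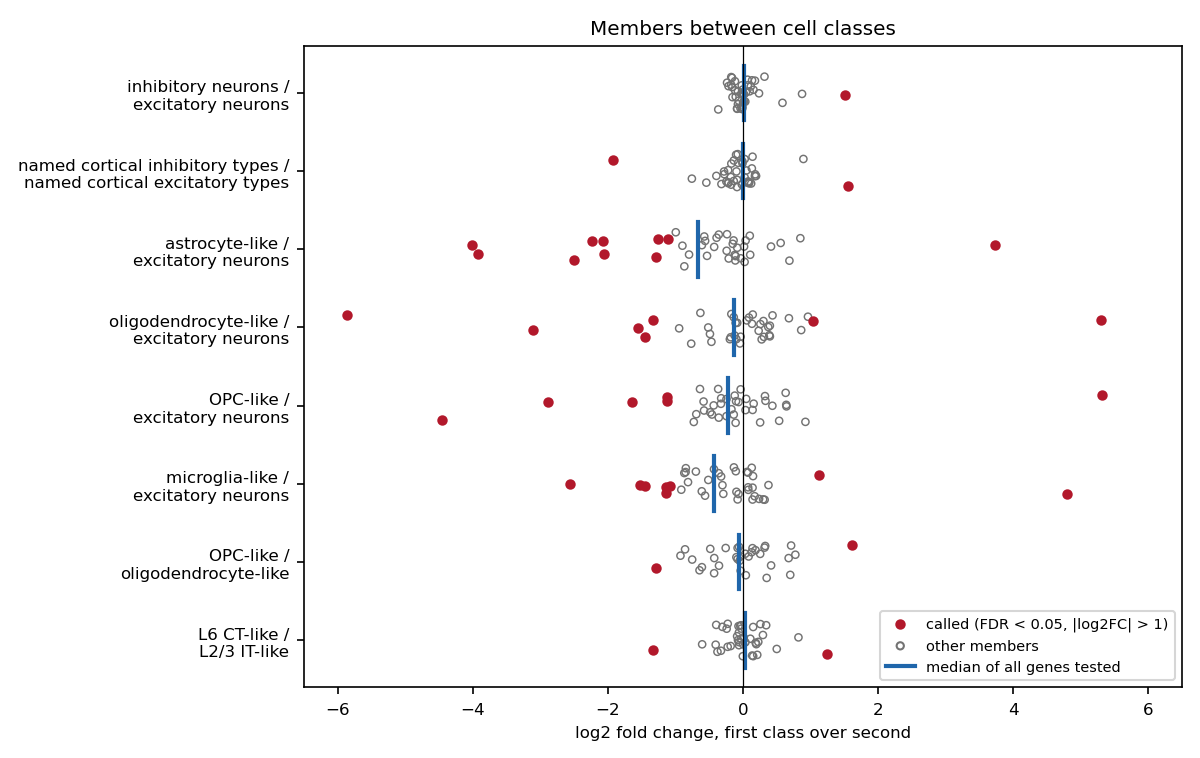
Log2 fold change of each member (points) in each contrast of classes, from edgeR with TMM scaling. Filled points are members called at adjusted p under 0.05 and a log2 fold change over 1 in size, and the vertical mark is the median over all genes tested. Chd7 is the far right point in all 4 glial contrasts, at 3.73 to 5.32, and Bcl11a lies at -2.56 to -5.87.

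The paralogous pairs of the list were compared by their values only. Kmt2c and Kmt2d, histone H3 lysine 4 methyltransferases of the same family, stood at 0.86 ± 0.06 and 0.28 ± 0.13 in oligodendrocyte-like over excitatory nuclei, and at 0.85 ± 0.16 and -0.03 ± 0.41 in astrocyte-like nuclei (with total counts 1.53, a call, and 0.63). Crebbp and Ep300, the paired acetyltransferases, lay between -0.36 and 0.38 in every contrast with TMM, with 0.15 ± 0.07 and 0.26 ± 0.08 in oligodendrocyte-like nuclei. With total counts they stood at 0.71 ± 0.17 and 1.17 ± 0.19 in microglia-like nuclei, where Ep300 was then called higher (adjusted p = 4.405e-09, edgeR). Med13 and Med13l, alternative subunits of the Mediator kinase module, stood at 0.06 ± 0.07 and -0.77 ± 0.08 in oligodendrocyte-like nuclei and at -0.24 ± 0.20 and -0.90 ± 0.23 in astrocyte-like nuclei (0.43 and -0.23 with total counts). The differences within pairs were not tested.

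Het was then compared with WT in excitatory neurons, inhibitory neurons and each of 19 named types, with genotype as the only term. Calls needed an adjusted p under 0.05 and a log2 fold change over 0.2 in size. No member was called in any of the 21 comparisons by edgeR's quasi-likelihood test. In excitatory neurons 24 of 14015 genes were called (0.171%), and 4 of 40 members had an unadjusted p under 0.05, beside 7.74% of all genes. In inhibitory neurons 28 of 11411 genes were called (0.245%), and 3 of 40 members had an unadjusted p under 0.05, beside 6.34% of all genes. The members' median log2 fold change was 0.015 in excitatory neurons (all genes -0.0040) and 0.037 in inhibitory neurons (all genes -0.0091). In the named cortical inhibitory types 1 of 40 members had an unadjusted p under 0.05, beside 6.18% of all genes, and the members' median was 0.036. With the DESeq2 test no member was called in excitatory neurons and 1, Foxp1, in inhibitory neurons. For these 21 comparisons, shares of all genes called are given for the main edgeR setting only. Calls of members under other settings are therefore not a result about the members.

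The background of calls was low in the named types too. It was 0.889% of 8320 genes in L6 CT-like nuclei, 0.164% in L4/5 IT-like, 0.0708% in L6 IT-like, 0.0321% in DG granule-like, 0.0603% in Pvalb-like, 0.0434% in Sst-like, 0.0782% in Vip-like, 0.0288% in Lamp5-like and 0.117% in Sncg-like nuclei. It was 0% in the other types. In the named cortical types summed it was 0.574% for excitatory and 0.0943% for inhibitory nuclei, again without a member. Between 0 and 4 members had an unadjusted p under 0.05 in each of these comparisons. The largest share among named types was in newly formed oligodendrocyte-like nuclei, with 4 of 33 members (12.1%) beside 4.35% of all genes, but none was called there. The largest number of genes was called in L6 CT-like nuclei (74), and of 39 members tested there 22 had a positive and 17 a negative fold change.

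**Figure D3:**
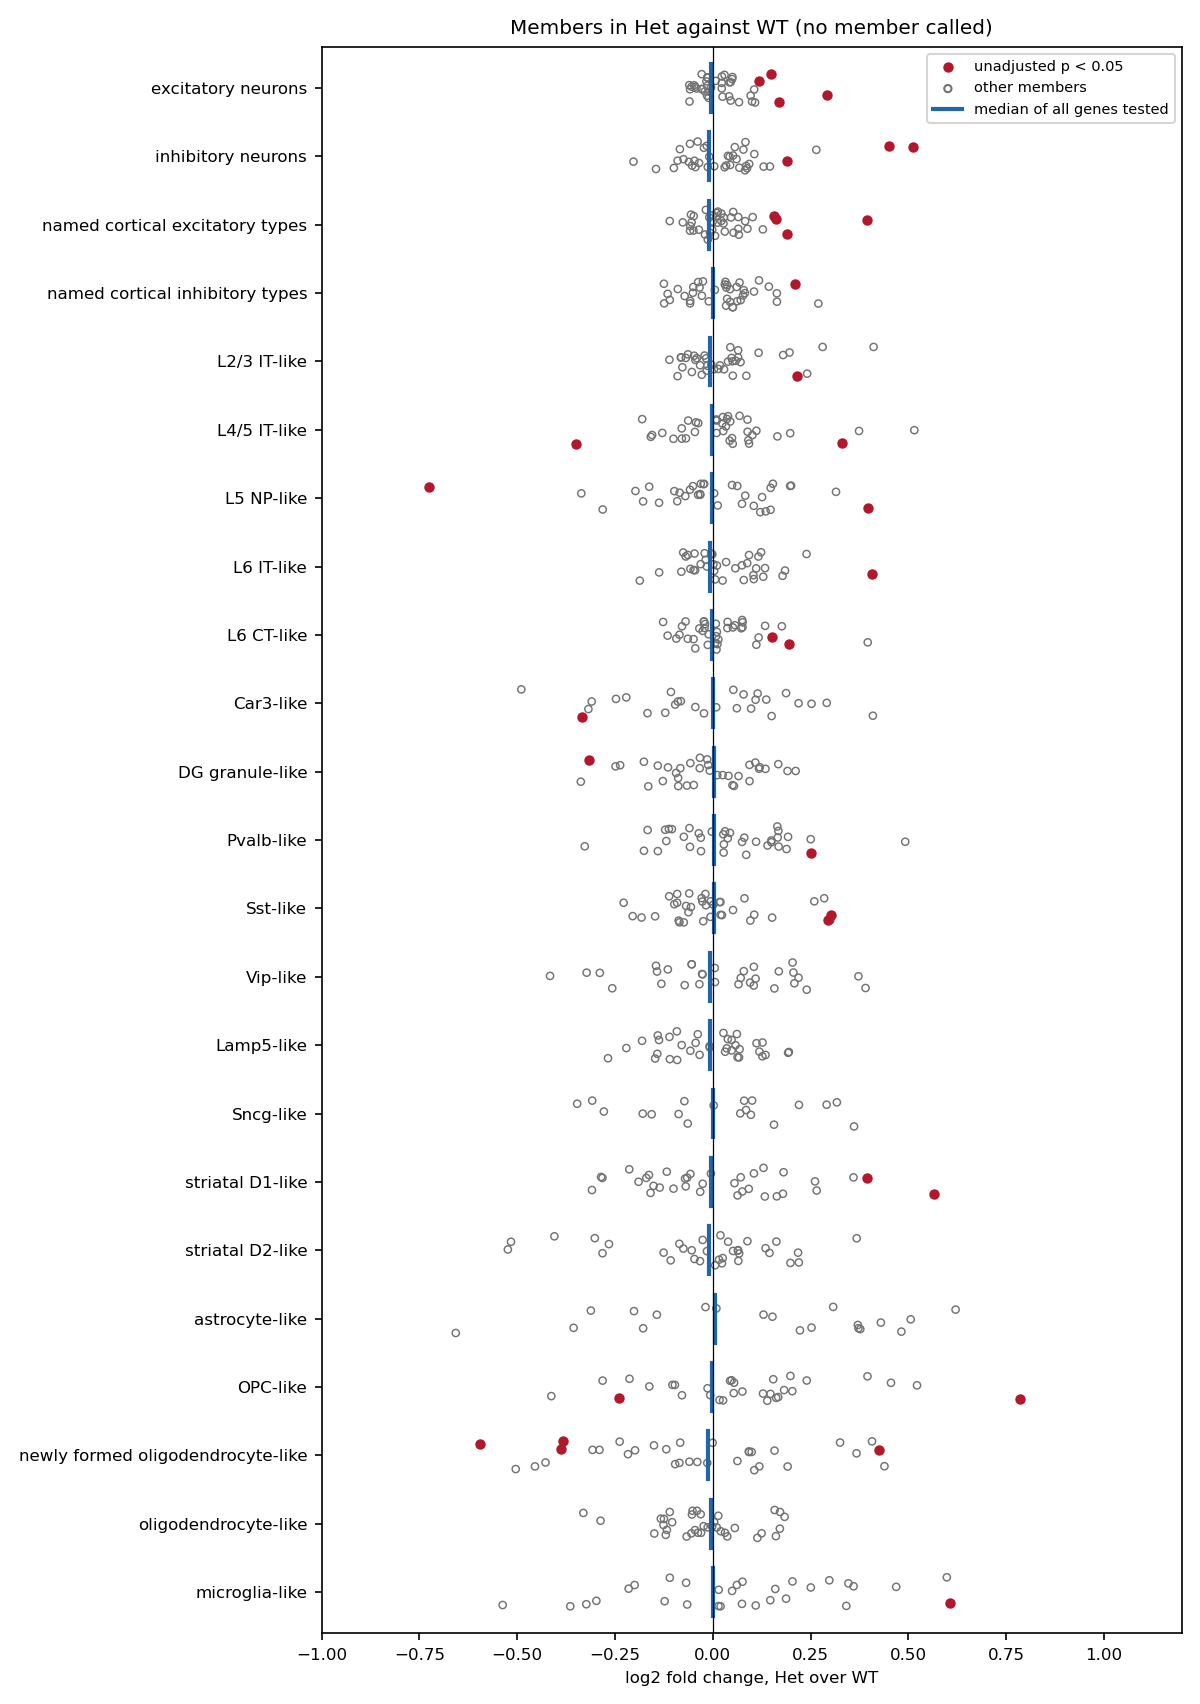
Log2 fold change of each member (points) in Het over WT, for excitatory and inhibitory neurons, their named cortical types summed and each named type. Filled points have an unadjusted p under 0.05, and the vertical mark is the median over all genes tested. No member was called in any row drawn.

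In excitatory neurons the members with the smallest p among those with a positive fold change were Kdm6b, Arid1a and Chd3. Kdm6b, which removes methyl groups from histone H3 lysine 27, was at 12.2, 20.9 and 25.1 CPM (lowest, median, highest) in WT and at 21.2, 24.5 and 26.9 in Het. Arid1a was at 77.5, 83.4 and 92.0 CPM in WT and at 88.3, 92.4 and 103 in Het. Chd3 was at 77.7, 86.9 and 103 CPM in WT and at 89.8, 106 and 110 in Het. In all 3 genes the animals of both genotypes overlapped, with the lowest animal a WT and the highest a Het. Their log2 fold changes were 0.29 ± 0.12, 0.15 ± 0.06 and 0.17 ± 0.07 (SE), and edgeR's adjusted p was 0.50 to 0.528. Leaving out 1 animal moved the value of Kdm6b to between 0.17 (without WT male replicate 3) and 0.37. Dnmt3a, the de novo DNA methyltransferase of postnatal neurons, had the next p and was added after its values were seen. It was at 194, 213 and 226 CPM in WT and at 217, 234 and 243 in Het, with a log2 fold change of 0.12 ± 0.05 and an adjusted p of 0.548 (edgeR). DG granule-like nuclei, which had the highest Chd3 level of any neuronal type, were 2.26% to 4.10% of excitatory nuclei in WT and 2.70% to 6.04% in Het (exact two-sided permutation test, p = 0.05195). In the named cortical excitatory types, without these nuclei, the fold changes of Kdm6b, Arid1a, Chd3 and Dnmt3a were 0.39 ± 0.14, 0.16 ± 0.07, 0.19 ± 0.08 and 0.16 ± 0.06, with adjusted p of 0.288 to 0.446.

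The members with the smallest p among those with a negative fold change were Mbd5, Setd5 and Med13. Mbd5, a methyl-CpG binding domain protein, was at 641, 669 and 706.5 CPM in WT and at 631, 652 and 687 in Het, a log2 fold change of -0.06 ± 0.05. Setd5, a SET domain protein, was at 251.5, 259 and 287 CPM in WT and at 248, 257 and 271 in Het, a log2 fold change of -0.05 ± 0.05. Med13 was at 180, 203 and 225 CPM in WT and at 190, 199 and 201 in Het, a log2 fold change of -0.06 ± 0.05. Their adjusted p was 0.830 to 0.850 with edgeR. In these genes, too, the groups overlapped, and the fold changes were about as large as their standard errors. Without 1 animal they lay between -0.08 and -0.03.

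**Figure D4:**
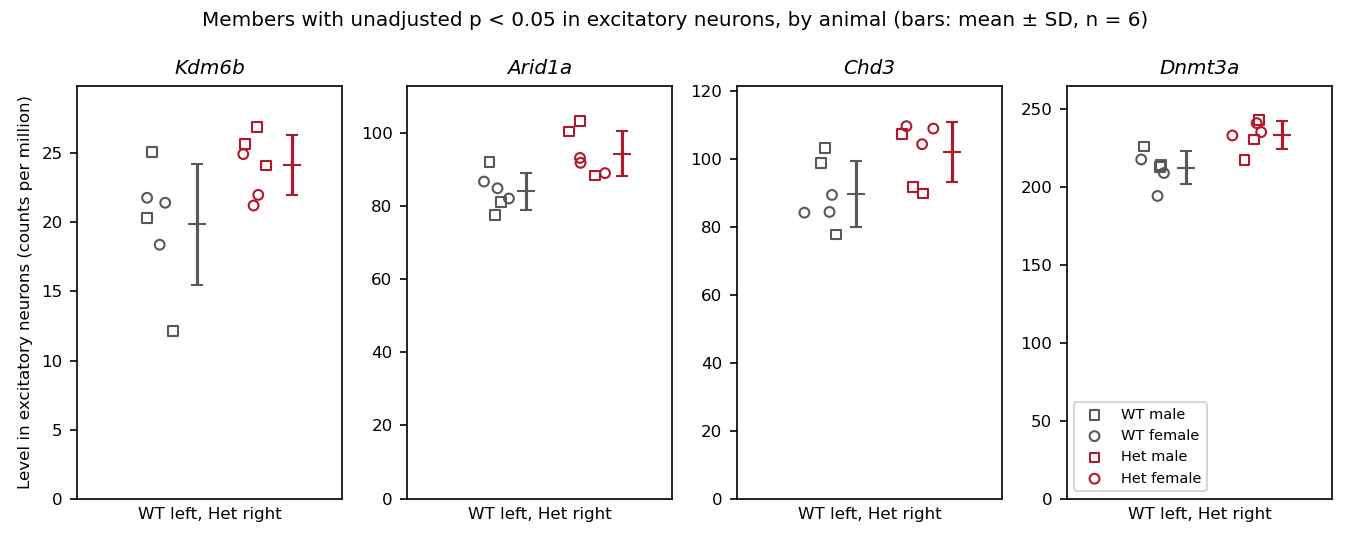
Level of the 4 members with an unadjusted p under 0.05 in excitatory neurons, in CPM, for each animal (squares males, circles females, WT and Het, n = 6 each) with the mean and SD of the group (bars). The 6 Het animals lie at 21.2 to 26.9 for Kdm6b and the 6 WT animals at 12.2 to 25.1, and the groups overlap in every panel.

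The sign of a member's fold change was also counted over the named types that tested it. Dnmt3a was positive in 12 of 18 types, Arid1a in 14 of 16, Phf21a in 17 of 19, Nsd1 in 16 of 19 and Kmt2a in 15 of 19. Mbd5 and Tcf4 were positive in 5 of 19. The types come from the same 12 animals and these genes were picked out by their counts, so the counts carry no test. Across the types the fold changes of Phf21a, a reader of unmethylated histone H3 lysine 4, had a median of 0.07, and those of Arid1a a median of 0.18. Kdm6b was tested in only 3 types, all with a positive fold change (0.40 to 0.52).

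In inhibitory neurons, Foxp1 had the smallest p of any member in either broad class, and its values are given after they were seen, since it was not called. It was at 306, 380 and 509 CPM in WT and at 511, 582 and 625 in Het (lowest, median, highest). Its groups did not overlap, which was not counted over all genes. Its log2 fold change was 0.51 ± 0.12 (adjusted p = 0.0928, edgeR). The gene was called when WT female replicate 1 or 2 was left out, and the share of all genes called then is not given. Without WT female replicate 1 the fold change was 0.59 (adjusted p = 0.02715, edgeR), and without WT female replicate 2 it was 0.60 (adjusted p = 0.008393, edgeR). These are the WT animals with the highest Foxp1 and with the largest share of striatal-like nuclei among WT (13.9% and 15.2%).

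Markers of striatal neurons were read in the same sums. Of 14 striatal marker genes 12 were tested in inhibitory neurons, all 12 with a positive fold change and 4 called higher in Het, with a median of 0.75. The summed level of 4 markers shared by both striatal types was 1513 to 1754 CPM in WT and 1941 to 2204 in Het. That difference had the smallest p an exact two-sided permutation test can give (p = 0.002165). In the named cortical inhibitory types the same sum was 1264 to 1703 CPM in WT and 1357 to 1720 in Het (p = 0.1255, exact permutation test), and of 3 markers tested none was called (median 0.11). These types hold no nuclei named striatal, so much of the sum was not particular to striatal-like nuclei. In the named cortical inhibitory types Foxp1 was at 145, 182 and 190 CPM in WT and at 172, 181 and 196 in Het. The groups overlapped and the log2 fold change was 0.04 ± 0.08 (adjusted p = 0.984, edgeR).

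Within striatal D1-like nuclei Foxp1 was at 1720, 1906 and 2224 CPM in WT and at 2024, 2230 and 2582 in Het (0.18 ± 0.10, adjusted p = 0.687). Within striatal D2-like nuclei it was at 2072, 2387 and 2726 CPM in WT and at 2166, 2705 and 3242 in Het (0.16 ± 0.12, adjusted p = 0.959, edgeR). The groups overlapped in both types, and both differences were smaller than the 0.51 seen in all inhibitory neurons. How far the share of striatal-like nuclei sets the Foxp1 difference in all inhibitory neurons was not tested.

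**Figure D5:**
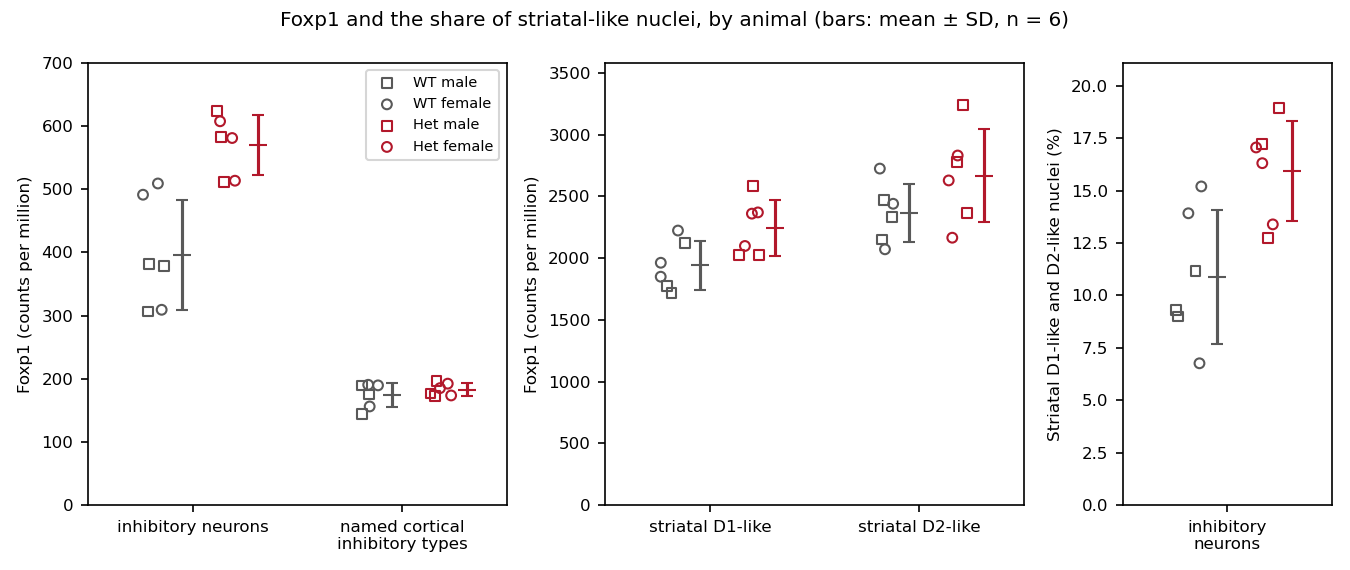
Foxp1 by animal (points, WT and Het, n = 6 each; bars give mean and SD). The panels show its level (CPM) in all inhibitory neurons and the named cortical inhibitory types, its level in striatal D1-like and D2-like nuclei, and the percentage of inhibitory nuclei that are striatal D1-like or D2-like, with squares for males and circles for females. WT and Het do not overlap in all inhibitory neurons (306 to 509 against 511 to 625) but do in the cortical types (145 to 190 against 172 to 196). Overlap was not counted over all genes.

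The other members with an unadjusted p under 0.05 in inhibitory neurons were Chd7 (0.45 ± 0.16) and Dnmt3a (0.19 ± 0.07), with an adjusted p of 0.50 for each (edgeR). With no filter on low counts Chd7 was called (0.48, adjusted p = 0.02874, edgeR), and the share of all genes called there is not given. In the named cortical inhibitory types the fold changes of Chd7 and Dnmt3a were 0.14 ± 0.21 and 0.06 ± 0.08. Dnmt3a in striatal D1-like nuclei was at 224, 272 and 362 CPM in WT and at 366, 380 and 423 in Het. Its groups did not overlap, which was not counted over all genes. Its log2 fold change there was 0.40 ± 0.14 and was not called (adjusted p = 0.482, edgeR). In L5 NP-like nuclei Asxl3 had the smallest p of any member, with 78.7, 136 and 143 CPM in WT and 53.9, 78.1 and 112 in Het. The groups overlapped, and its log2 fold change of -0.72 ± 0.18 was not called (adjusted p = 0.127, edgeR). It was called without WT female replicate 1 (-0.80, adjusted p = 0.0255, edgeR), where the share of all genes called is not given. These genes, too, were picked out after their values were seen.

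Whether the Het difference itself differed between classes was tested as an interaction. Between inhibitory and excitatory neurons 0 of 40 members were called (background 0.0324% of 12344 genes), and the smallest adjusted p was that of Foxp1, with a difference of 0.50 ± 0.10 (adjusted p = 0.0622, edgeR). With no filter on low counts Foxp1 was called (0.50, adjusted p = 1.632e-08, edgeR), beside 59 of 40368 genes. Between the named cortical types alone no member was called (background 0.0512%), and that of Foxp1 was 0.02 ± 0.08. Between males and females, in excitatory neurons, no member and no other gene was called (0%). The smallest member p was that of Chd3 (-0.33 ± 0.13, adjusted p = 0.773, edgeR). In each of these 3 tests 1 of 40 members had an unadjusted p under 0.05, beside 5.65%, 6.46% and 6.21% of all genes in the order given.

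Related chromatin genes were read from 10 lists with 121 genes, such as the other subunits of BAF, NuRD and H3K4 methyltransferase complexes, other Polycomb and Mediator kinase genes, and paralogs of the listed transcription factors. In excitatory neurons 1 of 118 tested (0.847%) was called in Het against WT, beside 0.171% of all genes, and in inhibitory neurons none of 116 (none of 108 in the named cortical inhibitory types). The called gene was Bcl11b, the paralog of Bcl11a, a zinc finger factor of subcerebral projection neurons and of striatal neurons. Its log2 fold change was 0.40 ± 0.07 in excitatory neurons (adjusted p = 0.009146, edgeR) and 0.36 ± 0.08 in L6 CT-like nuclei (adjusted p = 0.02033), where it was the 1 gene called of 108 tested (0.926%), beside 0.889% of all genes. In the named cortical excitatory types it was 0.42 (adjusted p = 0.01399). Bcl11a itself was at 0.11 ± 0.06 in excitatory neurons and was not called (adjusted p = 0.675).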

How the data were processed

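Nuclei from P21 cortices of 6 WT and 6 MYT1L Het mice were measured with combinatorial barcoding (Scale Biosciences). The authors ran the 12 cortices together on shared plates, where the barcode of the reverse transcription step marks the animal. They used ScaleRna for mapping to mm10 and for counting UMIs. The deposited values are UMI counts per gene and nucleus without normalization. Of their entries 92.6% are whole numbers and the others fractions, whose origin is not given in the sources used here, so the deposited values were handled like expected counts.

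Nuclei were kept within the limits given in the study's methods (UMIs from 800 to 6000, genes from 300 to 3000, mitochondrial UMIs up to 1%, log genes over log UMIs no lower than 0.9), which 34862 barcodes (44.3%) met. The upper UMI limit alone was exceeded by 33604 barcodes, so many transcript-rich nuclei were left out. The paper reports more P21 nuclei after these limits than the matrices hold barcodes, so its set of nuclei was not reproduced. Nuclei with a Scrublet score above the 95th percentile of their animal were removed (1643, or 4.71%), and those tied at the percentile were kept. Every animal's smallest barcode held at least 1502 UMIs. Nuclei were clustered in 2 rounds with scanpy 1.11.5 and leidenalg 0.10.2 (50 principal components, 20 neighbors), without the members, giving 82 clusters, of which 42 met no name's criteria. These criteria were made stricter once the clusters had been inspected but with genotypes not yet compared. The authors' labels per nucleus were not used here, and names may differ from theirs.

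Expected counts were summed per animal and class and rounded. Sums needed at least 10 nuclei, and a class at least 3 animals of each genotype. The smallest sum of an animal ranged from 20240 counts in newly formed oligodendrocyte-like nuclei to 2987743 in excitatory neurons. Tests used edgeR 4.0.16 in R 4.3.3 (TMM, filterByExpr, robust quasi-likelihood fits), with DESeq2 1.42.0 as an alternative, and Benjamini-Hochberg adjustment over all genes tested. All p-values are two-sided. The scripts were tested on simulated data. The members matched the mm10 annotation (GENCODE) by gene identifier, 39 with the same version.

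The members, the related lists and the comparisons were chosen with earlier results of these data known. Values in full were to be given for members called in Het against WT, for the 3 members of smallest p among positive and among negative fold changes in excitatory neurons, for up to 3 called in each direction per contrast of classes, and for paralogous pairs. Members given beyond this rule are named as such. Other settings were DESeq2, no filter on low counts, no upper limits on nuclei, no doublet removal, other clustering components, and leaving out each animal. Sex as a covariate and a replicate block were also run for Het against WT, and WT animals only for the contrasts of classes. Sums over the named cortical types and scaling by total counts were added after seeing the data.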

Additional observations from a re-analysis of the deposited data

Results flagged for a closer look

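In inhibitory neurons, Dnmt3a in Het male replicate 1 (226 CPM) lay apart from the other 5 Het animals (253 to 265). Its gap to the nearest animal was 0.690 of the range of the group, above Dixon's critical value for 6 animals. In 20 groups of 6 animals that were examined in this way this was the 1 result found, and chance gives about 1 in 20.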

How the results depend on the processing

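With scaling by total counts in place of TMM, a setting chosen after seeing the data, the members' median log2 fold change turned from negative to positive in all 5 contrasts with excitatory neurons, and single members changed sign, 17 in astrocyte-like and 14 in microglia-like nuclei, none of them called with TMM. Fold changes were followed across settings for up to 3 called members in each direction per contrast, except that between the named cortical types. For Het against WT they were followed for Kdm6b, Arid1a, Chd3, Dnmt3a, Mbd5, Setd5 and Med13 in excitatory neurons. In inhibitory neurons they were followed for Foxp1, Chd7 and Dnmt3a. All of these kept their direction under the settings run. The number of members called in Het against WT was 0 in excitatory neurons under every setting. In inhibitory neurons it became 1 with DESeq2 (Foxp1), 2 with no filter on low counts (Foxp1 and Chd7) and 0 to 1 when 1 animal was left out. In L5 NP-like nuclei it became 1 with no upper limits on nuclei (Asxl3) and 0 to 1 when 1 animal was left out. Members called between inhibitory and excitatory neurons were 2 in the named cortical types only. In microglia-like nuclei they were 13 with no filter on low counts (7 to 9 when 1 animal was left out). Between OPC- and oligodendrocyte-like nuclei they were 4 with DESeq2, 8 with no filter on low counts and 4 in WT animals only (2 to 3 when 1 animal was left out). In the test of the genotype difference between inhibitory and excitatory neurons, 1 member (Foxp1) was called with no filter on low counts. The cause of these changes was not tested. For the contrasts of classes and for Het against WT within a class, the share of all genes called under the same settings is not given. A change in the number of members called there is therefore not a result about the members.

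Calls over all genes moved more. In excitatory neurons 24 genes became 73 with DESeq2, 169 with no filter, 58 with no upper limits on nuclei, and 3 (without WT female replicate 3) to 47 (without WT female replicate 1) when 1 animal was left out. In inhibitory neurons 28 became 49, 165 and 1 under the same settings, and 15 to 54 when 1 animal was left out. With sex and replicate number as a replicate block, 0 members were called in excitatory and inhibitory neurons, and genes called in excitatory neurons fell to 12. Animals with the same sex and number showed no common deviation (correlation over 0.1 in 1 of 6 pairs, and 2 of 12 animals closest to their own number). With so few animals this cannot show whether the numbers mark litters or handling. Classes with few nuclei (154 astrocyte-like, 162 microglia-like) limit what could be detected for members with low counts such as Setd1a, Kdm6b and Kmt2d.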

Other observations

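In oligodendrocyte-like against excitatory nuclei 23 of 114 related chromatin genes tested were called higher and 14 lower (20.2% and 12.3%), beside 17.3% and 29.2% of all genes (edgeR, TMM, adjusted p under 0.05 and a log2 fold change over 1). In inhibitory against excitatory neurons 1 of 117 was called higher and none lower. Between the named cortical types 1 of 113, Kat2b, was called higher and 3 lower, namely Foxp2 (-5.22 ± 0.08), Mbd4 and Pagr1a. These genes were not kept out of the clustering, so the counts are descriptions, and the genes below were picked out after their values were seen. Of 21 BAF subunits 4 were higher and 4 lower in oligodendrocyte-like nuclei. Actl6b, a subunit of the neuronal BAF complex, was lower (-3.80 ± 0.32, SE), as was Dpf1 (-3.57 ± 0.33), while Actl6a, which takes the place of Actl6b outside neurons, was higher (1.00 ± 0.17). Ezh2, the methyltransferase of Polycomb repressive complex 2, was higher in oligodendrocyte-like (3.07 ± 0.09) and OPC-like nuclei (1.55 ± 0.20). Kat2b, a histone acetyltransferase, was higher in oligodendrocyte-like nuclei (4.37 ± 0.10) and was the gene called in inhibitory neurons (2.38 ± 0.07, and 2.69 ± 0.09 between the named cortical types). Chd5, a CHD remodeler of neurons, was lower in oligodendrocyte-like nuclei (-5.05 ± 0.20).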
